A study of Dunaliella salina with 6 samples.

Results

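Superoxide dismutases are the enzymes that turn superoxide, a by-product of photosynthesis and respiration, into oxygen and hydrogen peroxide. The genes described here were all those with an iron/manganese superoxide dismutase domain (Pfam PF00081 or PF02777) or a copper/zinc one (PF00080) in the deposited annotation of *Dunaliella salina* Bardawil. There were 4 of them among 25081 genes in the expression table, namely FSD1, FSD2, MSD1 and MSD2. All 4 carried both PF00081 and PF02777, and 0 gene models carried PF00080.

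*Dunaliella salina* is a unicellular, salt-tolerant green alga, and all libraries came from wild-type vegetative cells of its variety Bardawil (UTEX LB 2538). One group was grown in medium to which no iron was added (0 µM Fe, 3 flasks) and the other in medium to which iron was added at 1.5 µM (1.5 µM Fe, 3 flasks). All flasks held 1 M NaCl and were kept for 3 days at 24 °C and 140 rpm in constant light of 50 µE per square metre per second. Poly(A) RNA was sequenced with single-end reads of 50 nt, 1 library per flask, and expression was given by the authors as FPKM, a level scaled to the transcript's length in kb and to the mapped reads of the library.

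Iron and manganese superoxide dismutases share a fold and differ in the metal at the active site, whereas copper/zinc enzymes form a separate family. In the green alga *Chlamydomonas reinhardtii* the iron enzyme resides in the chloroplast, and a manganese enzyme is found in the chloroplast as well when iron is scarce. The Pfam domains do not tell an iron enzyme from a manganese one, so the metal is taken here from the authors' gene names. For MSD2 the annotation also gives a product name, that of a mitochondrial manganese superoxide dismutase. The other 3 genes had a name and no product.

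Read numbers per library were not stated in the sources. The spacing of low FPKM values implied 18420000 to 24750000 reads per library on the authors' scale. That spacing was blurred, so these numbers are rough. Summed FPKM was 472982 to 537245 in the libraries at 0 µM Fe and 538457 to 610113 in those at 1.5 µM Fe. The first principal component of 13909 tested genes held 63.3% of the variance. Replicate 3 at 0 µM Fe had a score of 18.3 on it, against 30.0 and 32.4 for replicates 1 and 2 at 0 µM Fe and between -28.4 and -25.2 for the libraries at 1.5 µM Fe. The fold changes of FSD1, FSD2 and MSD1 and the gene shares at 0 µM Fe are also given without that library.

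Both FSD genes had less transcript at 0 µM Fe, MSD1 had more, and MSD2 did not pass the test. In limma's fit over 13909 genes of mean FPKM 1 or more, on values transformed to log2(FPKM + 1), 3 of the 4 genes differed at an adjusted p under 0.05 and are termed called, with 2 lower and 1 higher at 0 µM Fe. Of all tested genes, 9.39% differed, 5.2% lower and 4.19% higher. All 4 genes had passed the filter on low values. The groups did not overlap for 3 of the 4 genes, against 30.2% of all tested genes. In these bulk cultures, fewer cells with a transcript and less transcript per cell cannot be told apart.

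**Figure D1:**
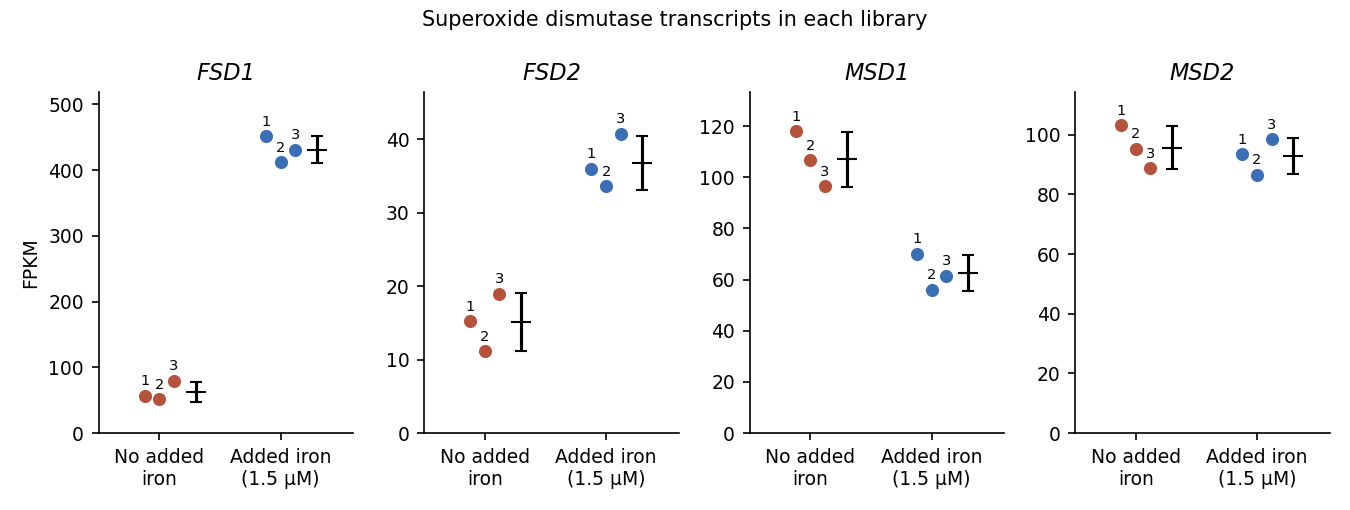
FPKM of each superoxide dismutase gene in the 3 libraries at 0 µM Fe (red, left) and the 3 at 1.5 µM Fe (blue, right), numbered by replicate, with the mean and SD in black and a separate axis from 0 for each gene. FSD1 and FSD2 were lower in every library at 0 µM Fe, MSD1 was higher in every one, and the MSD2 values overlapped.

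FSD1 (DsB_g16326), the iron-type gene with the most transcript, was on chromosome 9, minus strand, at 8636854-8639578 of the authors' assembly. Its model had 6 exons and a coding length of 684 nt. FPKM of FSD1 was 57.2, 51.2 and 79.95 in replicates 1, 2 and 3 at 0 µM Fe, against 451, 411 and 431 in replicates 1, 2 and 3 at 1.5 µM Fe. Every library at 0 µM Fe was thus far below every library at 1.5 µM Fe, and replicate 3 was the highest of the 3. The means were 62.8 ± 15.1 FPKM at 0 µM Fe and 431 ± 19.9 FPKM at 1.5 µM Fe (SD, n = 3 each), a ratio of 0.146. With 0 µM Fe over 1.5 µM Fe, the log2 fold change of FSD1 was -2.78 (SE 0.161, 95% interval -3.16 to -2.41; limma adjusted p = 4.43e-05). Among the 13909 tested genes, 12 had a lower fold change. By mean FPKM, FSD1 ranked 1147 of all genes in the table at 0 µM Fe and 192 at 1.5 µM Fe. Without replicate 3 at 0 µM Fe its log2 fold change was -2.97 (limma adjusted p = 7.49e-06).

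FSD2 (DsB_g09269), the other gene named as an iron superoxide dismutase, was on chromosome 5, plus strand, at 1224705-1239390. Its model was much longer than that of FSD1, with 13 exons, a coding length of 1023 nt and 13198 nt of introns against 1638 nt in FSD1, and it had no annotated 5′ UTR. FPKM of FSD2 was 15.3, 11.2 and 19.0 in replicates 1, 2 and 3 at 0 µM Fe, against 36.0, 33.6 and 40.7 in replicates 1, 2 and 3 at 1.5 µM Fe. The groups did not overlap, and replicate 3 was again the highest library at 0 µM Fe. The means were 15.1 ± 3.90 FPKM at 0 µM Fe and 36.8 ± 3.63 FPKM at 1.5 µM Fe (SD, n = 3 each), a ratio of 0.411. The log2 fold change of FSD2 was -1.25 (SE 0.174, 95% interval -1.65 to -0.85; limma adjusted p = 4.39e-03), and 98 tested genes had a lower one. Without replicate 3 at 0 µM Fe the value was -1.42.

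The pair of FSD genes differed in how far they were apart between the groups. The FPKM of FSD1 was 3.75, 4.59 and 4.22 times that of FSD2 in replicates 1, 2 and 3 at 0 µM Fe, and 12.5, 12.3 and 10.6 times that of FSD2 in replicates 1, 2 and 3 at 1.5 µM Fe. FSD1 remained the more abundant of the pair in all 6 libraries. These ratios are a description and were not tested.

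MSD1 (DsB_g10653), a gene named as a manganese superoxide dismutase, was on chromosome 5, minus strand, at 22395165-22410441. The annotation gives it 2 transcripts of 9 and 10 exons, both with a coding length of 654 nt. They differ at the end of the coding region, where the last 22 coding nt lie from 22395757 to 22395778 in the first transcript and from 22396602 to 22396623 in the second. The deposited value is 1 FPKM per gene and library, so the transcripts cannot be told apart. FPKM of MSD1 was 118, 107 and 96.5 in replicates 1, 2 and 3 at 0 µM Fe, against 70.1, 56.0 and 61.5 in replicates 1, 2 and 3 at 1.5 µM Fe. The lowest library at 0 µM Fe, replicate 3, was above the highest at 1.5 µM Fe. The means were 107 ± 10.8 FPKM at 0 µM Fe and 62.6 ± 7.12 FPKM at 1.5 µM Fe (SD, n = 3 each), a ratio of 1.71. The log2 fold change of MSD1 was 0.77 (SE 0.120, 95% interval 0.49 to 1.04; limma adjusted p = 7.68e-03), and 269 tested genes had a higher one. Without replicate 3 at 0 µM Fe it was 0.84.

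MSD2 (DsB_g13219), annotated as the mitochondrial manganese enzyme, was on chromosome 7, minus strand, at 10390029-10393392, with 10 exons and a coding length of 681 nt. FPKM of MSD2 was 103, 95.3 and 88.7 in replicates 1, 2 and 3 at 0 µM Fe, against 93.4, 86.6 and 98.5 in replicates 1, 2 and 3 at 1.5 µM Fe. These values overlapped, with both the highest library and the second lowest in the group at 0 µM Fe. The means were 95.7 ± 7.18 FPKM at 0 µM Fe and 92.8 ± 5.99 FPKM at 1.5 µM Fe (SD, n = 3 each). The log2 fold change of MSD2 was 0.04 with a 95% interval of -0.19 to 0.28 (limma adjusted p = 0.841). The interval leaves out a fall or rise as large as those of the other 3 genes. MSD2 passed the threshold in 1 of 15 alternatives, with columns rescaled to the same sum, where its log2 fold change was 0.22 (limma adjusted p = 0.0167). That scaling moved the median of all tested genes to 0.17 on the log2 scale, and 85.3% of the genes then called were higher at 0 µM Fe, against 44.6% with the deposited FPKM. Less that median, the log2 fold change of MSD2 was 0.05.

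**Figure D2:**
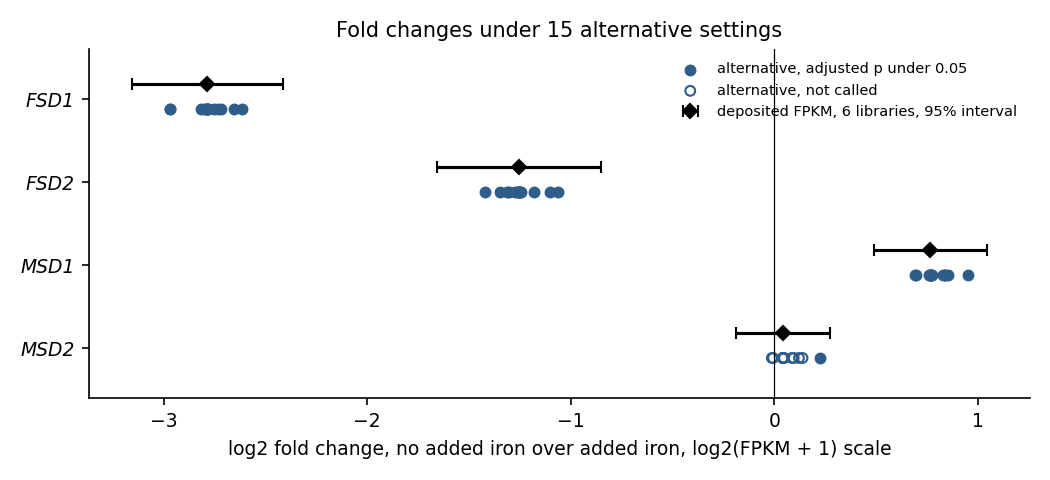
Log2 fold changes, 0 µM Fe over 1.5 µM Fe, for the 4 genes, as fitted to the deposited FPKM of all 6 libraries (diamonds with 95% intervals) and under each of 15 alternatives (circles, filled where the limma adjusted p was under 0.05). FSD1 stayed between -2.97 and -2.61, FSD2 between -1.42 and -1.06 and MSD1 between 0.69 and 0.95, while MSD2 lay around 0.

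The 4 genes together summed to 294, 264 and 284 FPKM in replicates 1, 2 and 3 at 0 µM Fe, against 651, 588 and 632 FPKM in replicates 1, 2 and 3 at 1.5 µM Fe. The summed level was thus lower in all libraries at 0 µM Fe, at 281 ± 14.9 FPKM, than in those at 1.5 µM Fe, at 623 ± 32.4 FPKM (SD, n = 3 each). FSD1 and FSD2 made up 77.9 ± 18.9 FPKM of this sum at 0 µM Fe and 468 ± 21.3 FPKM at 1.5 µM Fe. MSD1 and MSD2 made up 203 ± 17.96 FPKM at 0 µM Fe and 155 ± 11.2 FPKM at 1.5 µM Fe. The difference in the MSD sum was thus smaller than that in the FSD sum.

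The genes' shares of the pool are given next as a description. FSD1 held 22.3% ± 5.02 of the sum at 0 µM Fe and 69.2% ± 0.913 at 1.5 µM Fe (SD, n = 3 each). Without replicate 3 at 0 µM Fe, the shares of FSD1, FSD2, MSD1 and MSD2 in that group were 19.4%, 4.71%, 40.3% and 35.6%. MSD1 made up 38.2% ± 3.64 at 0 µM Fe and 10.02% ± 0.667 at 1.5 µM Fe. The share of MSD2 was 34.1% ± 2.56 at 0 µM Fe and 14.9% ± 0.641 at 1.5 µM Fe beside a level of its own that did not pass the test. FSD2 held 5.36% ± 1.23 at 0 µM Fe and 5.90% ± 0.485 at 1.5 µM Fe, as FSD2 and the sum were lower together.

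**Figure D3:**
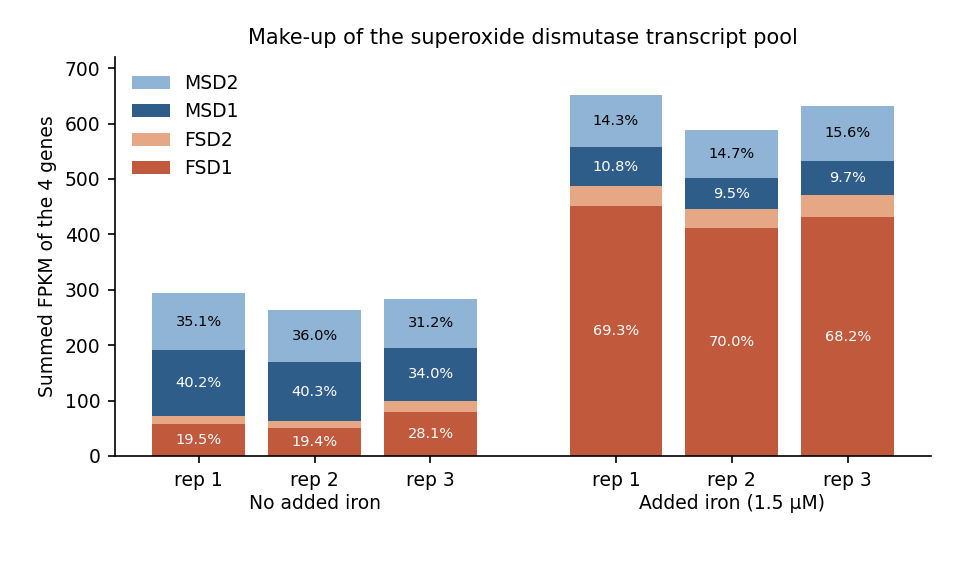
Summed FPKM of the superoxide dismutase genes in each library, at 0 µM Fe (left 3 bars) and at 1.5 µM Fe (right 3 bars), stacked by gene, with each gene's percent of the sum where it was above 9. FSD1 was the largest part of every bar at 1.5 µM Fe and was below both MSD genes in every bar at 0 µM Fe.

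The order of the genes by FPKM differed between the groups. At 0 µM Fe MSD1 was highest in all 3 libraries, at 1.15, 1.12 and 1.09 times MSD2 in replicates 1, 2 and 3, and FSD1 and FSD2 followed. The SD intervals of MSD1 and MSD2 overlapped in that group. At 1.5 µM Fe the order was FSD1, MSD2, MSD1 and FSD2 in all 3 libraries, and MSD1 was 0.751, 0.647 and 0.624 times MSD2 in replicates 1, 2 and 3. The FPKM of FSD1 was 0.485, 0.481 and 0.828 times that of MSD1 in replicates 1, 2 and 3 at 0 µM Fe, against 6.43, 7.35 and 7.003 times in replicates 1, 2 and 3 at 1.5 µM Fe.

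None of the 4 genes overlapped another gene model. Of the 5 tested genes next to them none passed the test, where 9.39% of all tested genes did. Among so few genes, none called is close to that share. FSD1 lay 7804 nt from CDPK2, a gene with a protein kinase domain (log2 fold change -0.13, limma adjusted p = 0.442), and 5851 nt from DsB_g16327 on the other side (0.11, limma adjusted p = 0.547). With columns rescaled to the same sum DsB_g16327 was called as higher (0.29, limma adjusted p = 0.0128). The median of all tested genes was 0.17 under that scaling. FSD2 lay 1109 nt from DsB_g09268 (0.05, limma adjusted p = 0.771) and 18786 nt from DsB_g09270 (-0.18, limma adjusted p = 0.537). The gene 1743 nt from MSD1, DRT2, stood at -0.07 (limma adjusted p = 0.680). The other 3 neighbours, DsB_g10652 beside MSD1 and DsB_g13218 and DsB_g13220 beside MSD2, were under the filter on low values and were not tested.

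Genes whose values over the 6 libraries were most like those of each called superoxide dismutase gene were found by the Euclidean distance between log2(FPKM + 1) values centred on each gene's mean. Only the 7568 of 13909 tested genes with a symbol, product or Pfam domain were searched, so genes without these may lie nearer. For FSD1 the nearest were TEF9 (distance 0.319), CYN26B with a cyclophilin domain (0.469) and DsB_g14915 (0.522). TEF9 and DsB_g14915 share the domain PF13301, and their log2 fold changes were -2.61 and -3.19. For FSD2 the nearest were HCAR1 (distance 0.193), CPLD30 with a rubredoxin domain (0.264) and PETC1, the Rieske iron-sulfur protein of the cytochrome b6f complex (0.275). PETC1 had 459 ± 61.4 FPKM at 0 µM Fe and 1146 ± 81.3 FPKM at 1.5 µM Fe (SD, n = 3 each). For MSD1 the nearest were DsB_g18925 with a WD40 domain (distance 0.0854), DsB_g10300 (0.160) and DsB_g22648 (0.165). With 2 groups of 3 libraries, such a likeness mainly reflects a similar difference between the groups.

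Hydrogen peroxide, the product of superoxide dismutases, is removed by catalase, heme peroxidases, peroxiredoxins and glutathione peroxidases. Of 20 genes with domains of these families, 19 were tested. Of these, 6 differed, with 4 lower and 2 higher at 0 µM Fe and 13 not called, which is 31.6% called against 9.39% of all tested genes. The list took in SCO1B, with the further domain PF02630, and NRX4, with PF00085 and PF13905, which are not named as peroxidases or peroxiredoxins. Neither was called. The median log2 fold change of the 19 was -0.08, against 0.00 for all tested genes. With columns rescaled to the same sum, 11 of the 19 were called, beside 3736 of all 13909 tested genes under that scaling. APX1A, with a heme peroxidase domain, averaged 10.5 FPKM at 0 µM Fe and 196 FPKM at 1.5 µM Fe (log2 fold change -4.10, limma adjusted p = 6.32e-07). CAT1, a catalase, averaged 50.7 FPKM at 0 µM Fe and 148 FPKM at 1.5 µM Fe (-1.53, limma adjusted p = 1.17e-04). Of the other genes with a heme peroxidase domain (PF00141), DsB_g22567 changed by -1.11 (limma adjusted p = 4.36e-03), while APX1B at -0.23 (limma adjusted p = 0.123) and DsB_g08011 at 0.13 (limma adjusted p = 0.510) were not called. The peroxiredoxin gene PRX4 changed by -0.81 (limma adjusted p = 4.42e-03).

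The peroxiredoxins PRX1 and PRX2, thiol-dependent peroxidases, were higher at 0 µM Fe. PRX1 averaged 883 FPKM at 0 µM Fe and 595 FPKM at 1.5 µM Fe (log2 fold change 0.57, limma adjusted p = 0.0180). PRX2 averaged 192 FPKM at 0 µM Fe and 121 FPKM at 1.5 µM Fe (0.65, limma adjusted p = 0.0411), and its log2 fold change was 0.82 without replicate 3 at 0 µM Fe. Both calls were lost without the filter on low values and with the replicate block. They were also lost when replicate 1 or 2 of either group was left out, and that of PRX2 without replicate 3 at 1.5 µM Fe as well. The limma adjusted p then reached up to 0.0783 for PRX1 and 0.146 for PRX2. The most abundant genes of these families that were not called were PRX5, at -0.08 on the log2 scale (limma adjusted p = 0.724), and DsB_g04295, with 0.13 (limma adjusted p = 0.538). DsB_g04295 was called with columns rescaled to the same sum, at 0.31 (limma adjusted p = 0.0345), where the median of all tested genes was 0.17.

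The ascorbate-glutathione cycle regenerates the electron donors of peroxide removal. Symbols for this cycle and for ascorbate and glutathione synthesis matched 10 genes, among them VTC1 and VTC4, whose domains belong to other families. Of the 10, 3 differed (30.0%, against 9.39% of all tested genes), with 1 higher and 2 lower at 0 µM Fe (median log2 fold change -0.06). With columns rescaled to the same sum, 5 of the 10 were called, beside 3736 of all 13909 tested genes under that scaling. MDAR1, named as a monodehydroascorbate reductase, averaged 125 FPKM at 0 µM Fe and 41.5 FPKM at 1.5 µM Fe (log2 fold change 1.52, limma adjusted p = 5.81e-03), and its log2 fold change was 1.81 without replicate 3 at 0 µM Fe. VTC2, named for an enzyme of ascorbate synthesis in plants, changed by -0.41 (limma adjusted p = 0.0313), a call that was lost in 7 of 15 alternatives with a limma adjusted p of up to 0.132. Among these were the alternatives that left out any single library but replicate 3 at 0 µM Fe. VTC4 changed by -0.55 (limma adjusted p = 9.25e-03), but its domain PF09359 is that of the polyphosphate-making vacuolar transporter chaperones known from yeast. VTC1, with the domain PF02656 that VTC4 also carries, had 0.03 (limma adjusted p = 0.898). It was called with columns rescaled to the same sum, at 0.21 (limma adjusted p = 0.0391), where the median of all tested genes was 0.17. VTC3, with protein kinase and phosphatase domains, was not called. The glutathione reductase gene GSR2 stood at -0.13 (limma adjusted p = 0.566).

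Metal supply bears on these enzymes through the metal each one binds. Of 9 genes with domains of NRAMP, CDF, VIT or UPF0016 transporters, several of which carry manganese in other organisms, 3 differed (33.3%, against 9.39% of all tested genes), with 1 higher and 2 lower at 0 µM Fe (median log2 fold change -0.24). NRAMP4, of a family that moves divalent iron and manganese, averaged 50.6 FPKM at 0 µM Fe and 9.39 FPKM at 1.5 µM Fe (log2 fold change 2.31, limma adjusted p = 1.46e-04). CMT1, which bears the name of a chloroplast manganese transporter of *Arabidopsis*, averaged 19.3 FPKM at 0 µM Fe and 44.8 FPKM at 1.5 µM Fe (-1.18, limma adjusted p = 7.73e-04). MTP1B, of the CDF family, changed by -0.64 (limma adjusted p = 0.0303), and this call was lost in 7 of 15 alternatives with a limma adjusted p of up to 0.0919, among them those without any single library but replicate 3 at 0 µM Fe. Not called were DsB_g23739 at -0.32 (limma adjusted p = 0.123) and CVL1 at -0.12 (limma adjusted p = 0.503).

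Although no gene model had a copper/zinc superoxide dismutase domain, copper genes were counted for comparison. Of 11 copper supply genes, 3 differed (27.3%, against 9.39% of all tested genes), with 2 higher and 1 lower at 0 µM Fe (median log2 fold change -0.03). The copper transporter gene CTR1 averaged 131 FPKM at 0 µM Fe and 41.3 FPKM at 1.5 µM Fe (log2 fold change 1.66, limma adjusted p = 1.25e-03). CTR2 changed by 0.60 (limma adjusted p = 0.0111) and the P-type ATPase gene CTP2 by -0.51 (limma adjusted p = 7.99e-03). The call of CTR2 was lost with the replicate block (limma adjusted p = 0.0568) and without replicate 2 of either group (limma adjusted p of 0.0545 and 0.0528). The copper chaperone genes PCC1 and ATX1 had log2 fold changes of 0.05 and -0.04 and were not called (limma adjusted p of 0.845 and 0.859). CCS1 and CCS5, which the symbols matched, name cytochrome c assembly factors in *Chlamydomonas* and were not called. PCY1, the gene of the copper protein plastocyanin, changed by -0.69 (limma adjusted p = 4.53e-03). It was not called with quantile normalization, where its log2 fold change was -0.11 (limma adjusted p = 0.0903), or without the filter on low values (limma adjusted p = 0.0629).

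Among 21 genes with flavodoxin, ferredoxin or ferritin domains, 9 differed (42.9%, against 9.39% of all tested genes), with 1 higher and 8 lower at 0 µM Fe (median log2 fold change -0.08). FSD1, at -2.78, lay between the ferredoxin gene FDX1B, at -3.51, and the ferritin gene FER1, at -2.52. FLD1, the flavodoxin that can stand in for ferredoxin, was higher by 9.74 on the log2 scale. FDX11, FLVA1 and NUOS1 changed by -1.64, -1.09 and -0.76. Of the called genes, FLVA1, NUOS1, XDH1 and DsB_g16638 also carry domains of other families. The count is thus not one of flavodoxins, ferredoxins and ferritins alone. Without replicate 3 at 0 µM Fe the log2 fold changes of FDX1B and FDX11 were -3.77 and -1.83. The most abundant gene with a ferredoxin domain, FDX1A, stood at 0.11 (limma adjusted p = 0.531) and lay 85807 nt from FSD2 with 3 gene models between them. FDX1A was called as higher with columns rescaled to the same sum and with quantile normalization (limma adjusted p of 0.0130 and 2.69e-03). The rescaling put the median of all tested genes at 0.17 on the log2 scale. FDX4 was not called, at -0.20 (limma adjusted p = 0.298).

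**Figure D4:**
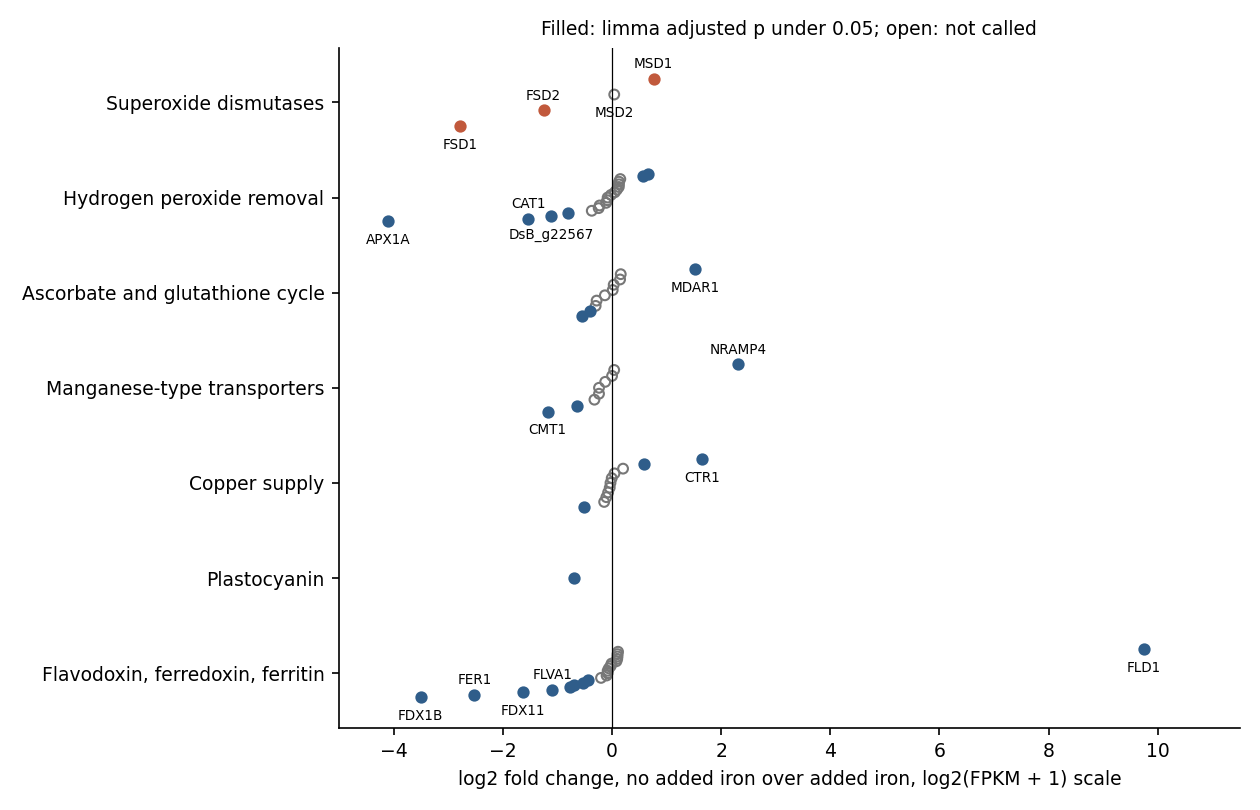
Log2 fold changes, 0 µM Fe over 1.5 µM Fe after a pseudocount of 1, 1 point per tested gene, for the superoxide dismutases (top, red where called) and the genes of related functions (blue where called), with open circles for genes not called. FSD1 and FSD2 lay on the lower side together with APX1A and CAT1, and MSD1 on the higher side together with MDAR1, NRAMP4 and CTR1. Other called genes of the same lists went the opposite way, with PRX1 and PRX2 higher and VTC4, CMT1, MTP1B and CTP2 lower.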

How the data were processed

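Total RNA was poly(A)-selected and reads were aligned with STAR 2.4.0j to the authors' own assembly, and the deposited FPKM values were computed by the authors with Cuffdiff 2.0.2, per the series' design text and the submitters' processing notes. Strandedness, the handling of multi-mapping reads and any further scaling were not given in the sources used here, so reads common to several superoxide dismutase genes may have been shared out in an unknown way. The deposited annotation held 25074 gene models; 7 genes of the table had none. Its start and end coordinates count from 1.

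FPKM was transformed to log2(FPKM + 1), which understates the change of low genes. Genes whose FPKM averaged 1 or more were fitted in limma 3.58.1 (R 4.3.3) on group alone, using a mean-variance trend and two-sided tests with Benjamini-Hochberg adjustment over all 13909 genes at 0.05. Fold changes are no added iron over added iron. Python 3.11.15 was used for the rest. For depth, FPKM times exon length less an offset was searched for the step of 1 read. The offset (198 to 218 nt) and the depth were chosen together for the best fit. Of the values below 10 reads 22.1% to 43.2% came out whole within a tolerance of 0.05, so no count test was run. The replicates were separate flasks.

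Lists were matched by Pfam accession or symbol. Named were all superoxide dismutase genes, their nearest neighbours and the 3 described genes most like each called one. Described genes were those with a symbol, product or Pfam domain. Also named were, on each list, up to 6 called genes of smallest adjusted p and 2 uncalled genes of highest FPKM. APX1B, DsB_g08011, SCO1B, NRX4, VTC3, CCS1, CCS5, XDH1 and DsB_g16638 were named after their values were seen. The members and lists were chosen with earlier results of these data known. No sequences were used here.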

Additional observations from a re-analysis of the deposited data

How the results depend on the processing

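FSD1, FSD2 and MSD1 kept their direction and stayed called in all 15 alternatives. With quantile normalization the shares of the 4 genes moved by less than 1 SD. The other alternatives run for the shares could not move them that far. Leaving out 1 of 3 libraries cannot shift a mean by 1 SD, and all 4 genes pass the filter on low values. With 1 library left out, the log2 fold change ranged from -2.97 to -2.65 for FSD1, from -1.42 to -1.06 for FSD2 and from 0.69 to 0.85 for MSD1. That of MSD2 ranged from -0.012 to 0.095 and changed sign without replicate 1 at 0 µM Fe (-0.012) and without replicate 2 at 1.5 µM Fe (-0.0063). With columns rescaled to the same sum MSD2 was called, at 0.22. In replicates 1 and 2 of both groups alone the log2 fold changes were -2.97, -1.35, 0.83 and 0.14 for FSD1, FSD2, MSD1 and MSD2.

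Over all genes, 1306 differed, 583 higher and 723 lower. With 1 library left out, the count ranged from 586 to 1784, with 271 to 931 higher and 315 to 853 lower. It was 736, 586 and 1784 without replicates 1, 2 and 3 at 0 µM Fe, and 792, 667 and 691 without replicates 1, 2 and 3 at 1.5 µM Fe. It was 3736 with columns rescaled to the same sum (3185 higher), 2143 with quantile normalization (1049 higher and 1094 lower), and 1010 genes were higher in replicates 1 and 2 alone. The replicate block gave 813 genes, 365 higher and 448 lower. Same-numbered libraries of the groups had deviations correlated at 0.02, 0.08 and -0.13, and differently numbered ones at -0.17 to 0.14. With 3 libraries per group, the deviations from a group's mean are bound to each other. These correlations thus cannot show whether same-numbered libraries shared more than a number. The cause of the shifts in the counts was not tested.

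Among the 46 other named genes, 687 values were computed under the alternatives, and 32 lost a call, 5 gained one and 17 changed sign. All that changed sign were not called. With columns rescaled these were PRX5 (0.10), GSR2 (0.051), CVL1 (0.054), ATX1 (0.14), CDPK2 (0.046) and DRT2 (0.090). In replicates 1 and 2 alone they were PRX5 (0.054), GSR2 (0.039), ATX1 (0.048) and DsB_g09268 (-0.026), and with quantile normalization PRX5 (0.013). With 1 library left out, VTC1 ranged from -0.056 to 0.11, PCC1 from -0.026 to 0.15, DsB_g09268 from -0.0011 to 0.081 and ATX1 from -0.12 to 0.015. The steps in low FPKM values were too blurred to give counting errors, which limits what can be said of genes near the filter.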
